A study of Lithobates clamitans with 20 samples.

Results

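The genes described here are 49 genes of the gut of green frog (Lithobates clamitans) tadpoles whose CPM (read counts of a gene over the scaled size of its library, with factors by TMM, the trimmed mean of M-values) were higher in every tadpole coded 32 than in any tadpole coded 22. They were chosen by that comparison: a gene was taken if it had no count of 0 in any library, a mean of under 1000 CPM, and a lowest value among the 10 tadpoles coded 32 above the highest value among the 10 coded 22. The 49 genes are 0.578% of the 8477 genes in the deposited table, and 0.770% of the 6364 genes that met the first and second conditions. Because the difference between the temperature codes chose the genes, its size is given below as a description without a test, and nothing is drawn from it. The rule took no account of which tadpoles were colonized or depleted. Their difference, within a temperature and in the response to it, was tested over all 8477 genes, although the rule used the same values and so limits how far they can spread within a code.

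Gut RNA of 20 tadpoles was sequenced, 1 library per tadpole, to ask how the response to warming differs between hosts with a more natural and a reduced gut microbial community. The 4 code groups hold 5 tadpoles each: C22 (read as colonized, held at 22°C), D22 (depleted, 22°C), C32 (colonized, 32°C for 24 h) and D32 (depleted, 32°C for 24 h). Larvae of the same age were reared for several weeks at 22°C, each in its own container, in sterilised laboratory water to which unmanipulated (colonized) or autoclaved (depleted) pond water had been added. For the 24 h at 32°C, warm tadpoles were moved to another environmental chamber, while cool tadpoles stayed at 22°C. Temperature therefore cannot be told apart from the chamber or the move. All came from the spawning of 1 wild pair, so the results describe siblings of 1 family, and each library holds part of the whole gut of 1 animal. No genotype differed by design. Depleted tadpoles keep a gut community, so they are not germ-free animals.

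The sample records hold 2 accounts of the groups that differ for 10 of the 20 tadpoles. The treatment fields give the tadpoles coded C32 as depleted and cool, and those coded D22 as colonized and warm, while the codes read the other way round. The codes are used here because the choice of genes used them. By the treatment fields, the difference that separates the 49 genes is one between depleted tadpoles (coded 32) and colonized tadpoles (coded 22), not between warm and cool. The same rule applied with the temperatures of the treatment fields found 0 genes. Every sentence below that speaks of temperature, colonized or depleted follows the codes.

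An ectotherm takes the temperature of its water, and in many animals a heat pulse is followed within hours by wide changes of transcript levels, among them genes for chaperones, which refold damaged proteins, and for ribosome assembly, RNA processing and energy metabolism. The gut lining renews itself and lies against the microbial community, which supplies nutrients and signals that host cells respond to. The deposited table names genes only by identifiers of the bullfrog genome (AB205_ numbers), with no symbol, product or position, so no function, gene list or sequence can be given for the 49 genes, and the tissue could not be checked against marker genes. Reads that fall on closely related genes, or on genes that overlap, may have been divided between identifiers. In RNA of a whole gut, more cells of a type and more RNA per cell cannot be told apart.

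Libraries held between 11102195 and 22922461 counts. Group medians were 16533610 in C22, 21154306 in D22, 21918522 in C32 and 21707665 in D32. At this depth the lowest count of any of the 49 genes in any library was 10, of AB205_0185130 in D2201. TMM factors ran from 0.697 to 1.255 in C22, from 0.682 to 1.03 in D22, from 0.973 to 1.252 in C32 and from 0.878 to 1.29 in D32, and the 10 most abundant genes took 18.0% to 32.0% of a library's counts. CPM carry no correction for transcript length, so levels are compared between tadpoles and not between genes.

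The 49 genes together made up 0.0781% to 0.181% of the reads counted in C22 and 0.0804% to 0.149% in D22. They made up 0.270% to 0.303% in C32 and 0.236% to 0.346% in D32. These shares use no scaling factor. They sum the values on which the genes were chosen, so their separation by code is part of the choice. Each gene's log2 CPM was also centred on its mean over the 20 tadpoles and averaged over the 49 genes. This mean level lay between −0.68 and −0.27 in C22, between −0.76 and −0.34 in D22, between 0.41 and 0.64 in C32 and between 0.46 and 0.66 in D32. Its SD over the 5 tadpoles of a group was 0.199 in C22 and 0.170 in D22, and 0.094 in C32 and 0.076 in D32.

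**Figure D1:**
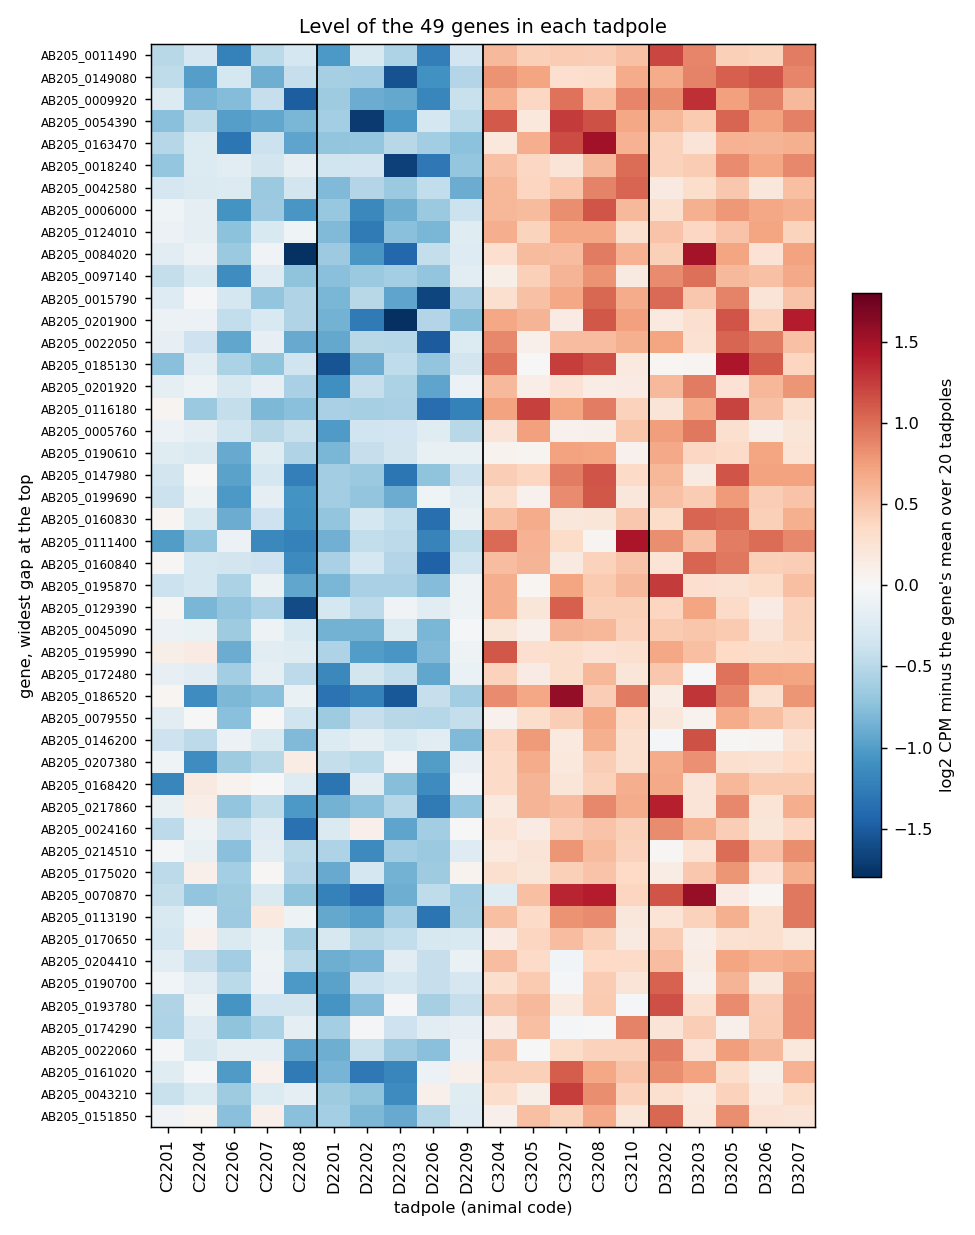
Heat map of the 49 genes (rows, widest gap between the codes at the top) in the 20 tadpoles (columns, by group); colour is log2 CPM minus the gene's mean over all tadpoles. Tadpoles coded 22 are blue and those coded 32 red because the genes were chosen for this; within the codes, no group of 5 stands apart as a block.

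Over the 49 genes, mean CPM at 32 was 1.51 to 3.06 times that at 22, with a median of 2.05, and 28 genes were over 2-fold. In colonized tadpoles the ratio was 1.42 to 3.27 with a median of 1.86, and 19 genes were over 2-fold. In depleted tadpoles it was 1.54 to 3.40 with a median of 2.27, and 37 genes were over 2-fold. The fitted log2 fold changes had a median of 0.89 in colonized tadpoles, where the median of all 8477 genes was −0.01, and of 1.18 in depleted tadpoles, where it was 0.03. Mirrored, the rule finds 72 genes that were lower in every tadpole coded 32, with median log2 fold changes of −1.04 in colonized and −1.33 in depleted tadpoles.

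The gap, the lowest value at 32 divided by the highest at 22, ran from 1.0006 to 1.60 with a median of 1.10. It was over 1.5 in 3 genes. Values in CPM below are listed in the order of the animal numbers: 01, 04, 06, 07 and 08 for C22, 01, 02, 03, 06 and 09 for D22, 04, 05, 07, 08 and 10 for C32, and 02, 03, 05, 06 and 07 for D32.

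The widest gap, 1.601, was that of AB205_0011490. Its values were 11.01, 12.7, 6.71, 11.1 and 12.5 in C22, 7.59, 12.9, 10.6, 6.59 and 12.2 in D22, 23.3, 21.04, 21.3, 21.2 and 22.5 in C32 and 35.8, 28.7, 20.9, 20.6 and 29.5 in D32. C2206, D2201 and D2206 were the low tadpoles, the C32 tadpoles lay close together, and D32 reached higher than any other group. Group means were 10.8 ± 2.41 in C22, 9.97 ± 2.78 in D22, 21.9 ± 0.972 in C32 and 27.1 ± 6.43 in D32 (SD, n = 5 each). The lowest warm value stood on 551 counts and the highest cool value on 205, and their exact Poisson 95% intervals, 18.9 to 22.4 and 11.2 to 14.8 CPM, did not overlap. Such intervals cover counting error only.

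AB205_0149080 had a gap of 1.54. Its values were 3.67, 2.53, 4.03, 2.75 and 3.79 in C22, 3.32, 3.27, 1.703, 2.37 and 3.49 in D22, 8.79, 8.25, 6.18, 6.25 and 8.01 in C32 and 8.003, 9.298, 10.6, 10.97 and 9.21 in D32. Here 4 of the 5 D32 values lay above every C32 value, while D22 reached lower than C22. The ratio of group means was 2.24 in colonized and 3.398 in depleted tadpoles, the latter the highest of the 49 genes.

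AB205_0009920 had a gap of 1.53, with 10.8, 7.13, 7.38, 9.54 and 4.56 in C22, 8.14, 6.85, 6.73, 5.61 and 9.61 in D22, 19.9, 16.5, 24.97, 18.5 and 23.3 in C32 and 22.6, 31.5, 21.2, 23.9 and 19.05 in D32. D3203 was its highest tadpole and C2208 its lowest, and colonized and depleted values overlapped at both codes. AB205_0054390 had a gap of 1.42, with 4.05, 4.95, 3.44, 3.57 and 3.87 in C22, 4.48, 2.07, 3.32, 5.49 and 4.86 in D22, 14.7, 7.803, 16.3, 15.1 and 11.1 in C32 and 10.3, 9.45, 14.1, 11.2 and 12.7 in D32. Its C32 values ran from C3205 at 7.803 to C3207 at 16.3, with a coefficient of variation of 26.9%, against 33.5% in D22. Its ratio in colonized tadpoles, 3.27, was the highest of the 49.

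AB205_0163470 gave 4.22, 5.06, 2.43, 4.58 and 3.1000 in C22, 3.66, 3.71, 4.26, 3.87 and 3.603 in D22, 6.83, 9.48, 13.5, 17.1 and 9.22 in C32 and 8.003, 7.04, 9.25, 9.17 and 9.37 in D32, a gap of 1.35. Its D22 and D32 values were narrow, and C3207 and C3208 stood above all other tadpoles. AB205_0018240 gave 3.21, 4.37, 4.53, 4.14 and 4.65 in C22, 4.07, 4.09, 1.62, 2.14 and 3.22 in D22, 7.54, 6.74, 6.14, 7.82 and 10.5 in C32 and 6.91, 7.14, 9.399, 8.42 and 9.52 in D32, a gap of 1.32. D2203 and D2206 were its low tadpoles and C3210 its high one.

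AB205_0006000 gave 23.2, 21.7, 11.7, 15.6 and 11.8 in C22, 15.3, 10.999, 13.4, 15.5 and 18.7 in D22, 37.1, 36.2, 43.8, 53.9 and 36.5 in C32 and 30.02, 38.3, 42.3, 39.6 and 38.7 in D32, a gap of 1.29. C2201 and C2204 were its highest cool tadpoles and C3208 was the highest of all. AB205_0084020 gave 24.8, 26.5, 18.03, 27.2 and 8.35 in C22, 18.1, 13.8, 10.7, 21.2 and 24.2 in D22, 35.1, 42.4, 41.8, 54.7 and 43.96 in C32 and 38.5, 80.2, 46.5, 34.1 and 47.2 in D32, a gap of 1.253. D3203 stood far above the other D32 tadpoles, which lay from 34.1 to 47.2.

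Among the genes with the highest CPM, AB205_0147980 had 199.9, 252, 129, 202 and 108 in C22, 163, 158, 103, 152 and 193 in D22, 343, 328, 475, 552 and 321 in C32 and 380.1, 282, 550.4, 418 and 417 in D32, with a gap of 1.12. C2204 and D3203 were the tadpoles nearest to each other across the codes. In AB205_0097140, with a gap of 1.23, values were 69.3, 77.2, 42.9, 79.3 and 56.6 in C22, 55.5, 58.7, 60.9, 57.1 and 81.4 in D22, 100.4, 126, 143, 163 and 104 in C32 and 169, 185, 140.5, 135 and 149.6 in D32. Among its D22 values D2209 was high, and the other D22 tadpoles lay from 55.5 to 60.9.

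AB205_0214510 ran from 78.7 to 131 in C22, from 59.96 to 114 in D22, from 150.4 to 231 in C32 and from 135 to 266 in D32. AB205_0207380 ran from 55.8 to 133, 60.3 to 117, 139 to 193 and 148 to 216 in the same order of groups, and AB205_0146200 from 53.1 to 85.9, 53.4 to 82.6, 104 to 157 and 90.02 to 205. In the last of these D3203 was high in D32 and D2209 low in D22. Of the genes with the lowest CPM, AB205_0185130 ran from 0.678 to 1.73 at 22 and from 2.002 to 5.45 at 32, AB205_0193780 from 1.08 to 2.21 and 2.24 to 5.07, and AB205_0168420 from 1.22 to 3.39 and 3.53 to 4.87.

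At the edge of the rule, the highest cool and lowest warm values nearly met. Just inside were AB205_0161020 (19.8 and 19.99 CPM), AB205_0043210 (31.6 and 31.9) and AB205_0151850 (61.9 and 61.97). Just outside were AB205_0214310 (4.58 and 4.57), AB205_0202590 (7.55 and 7.53) and AB205_0045100 (5.18 and 5.14). Counting error alone could move genes this close to the edge across it. The exact Poisson 95% intervals of the lowest warm and highest cool values overlapped in 40 of the 49 genes and stood apart in 9. Such overlap does not by itself show that counting error could reverse the order. In AB205_0149080, for example, intervals of 5.18 to 7.33 and 2.97 to 5.34 CPM overlapped only narrowly. A further 3 genes had the same separation but a count of 0 in at least 1 tadpole coded 22.

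A few tadpoles set the edge. The highest value at 22 belonged to a C22 tadpole in 36 of the 49 genes, most often C2201 (12 genes) and C2204 (11), and to a D22 tadpole in 13. The lowest value at 32 belonged to a C32 tadpole in 33 genes, most often C3205 (12) and C3207 (11), and to a D32 tadpole in 16. How often these tadpoles held such extremes over all genes was not counted. The gap within colonized tadpoles alone had a median of 1.16, and that within depleted tadpoles a median of 1.38. Leaving out C2207 raised the number of genes that met the rule from 49 to 82, and leaving out C2204 raised it to 77.

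**Figure D2:**
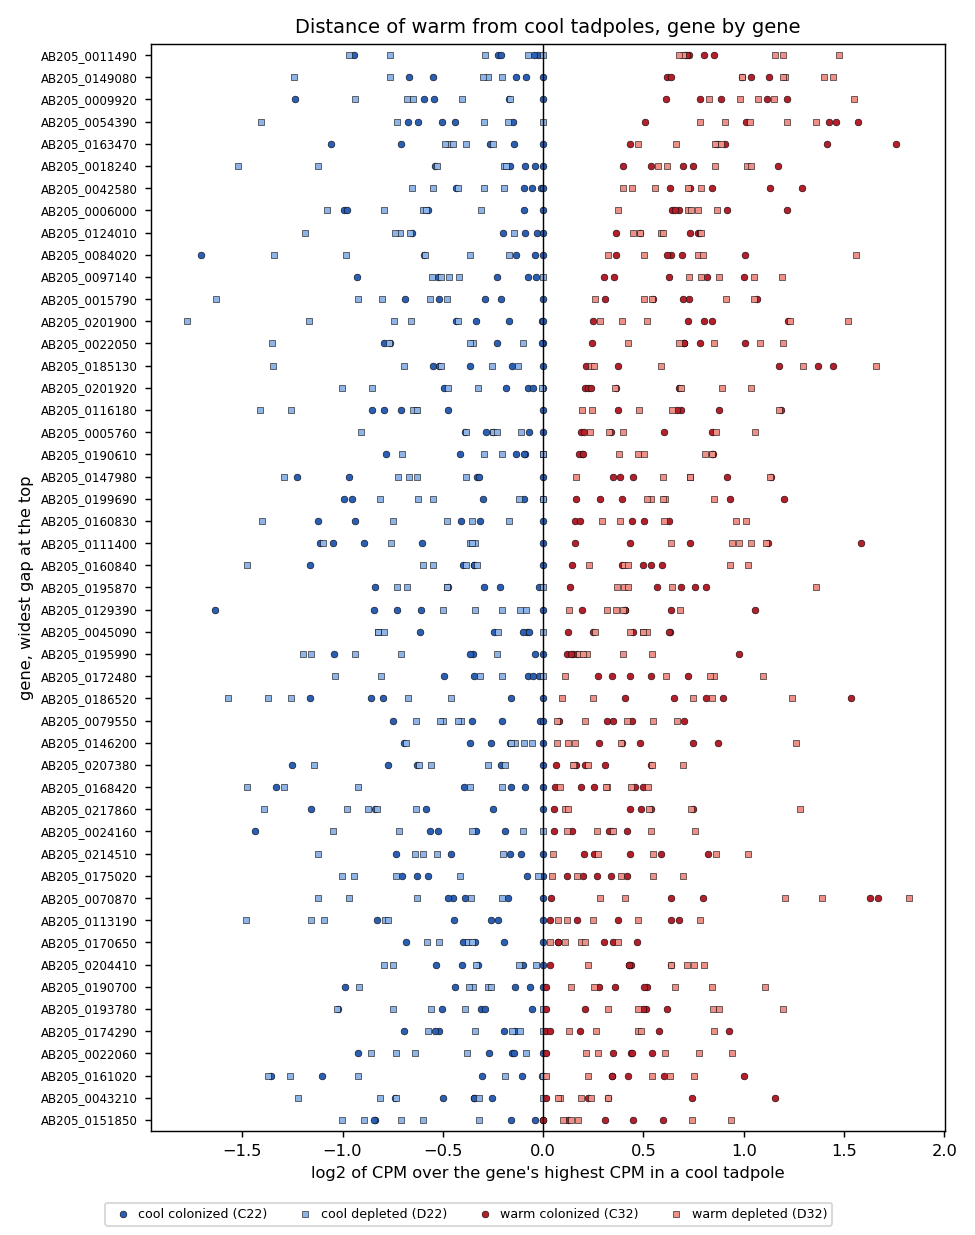
Each row is 1 of the 49 genes and each point 1 tadpole; the x axis is log2 of its CPM over the gene's highest CPM at 22, so 0 is the edge of the rule. Gaps shrink from 1.60 in AB205_0011490 at the top to 1.0006 in AB205_0151850 at the bottom, and the cool tadpole at 0 is a C22 tadpole in 36 of the 49 rows.

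Whether the response to temperature differed between depleted and colonized tadpoles was tested as the interaction, (D32 − D22) − (C32 − C22), on the log2 scale with edgeR's quasi-likelihood test. At a Benjamini–Hochberg adjusted p under 0.05, 0 of the 49 genes and 0 of all 8477 (0%) were called, and the smallest adjusted p was 0.299 among the 49 and 0.207 overall. The share over all genes depended on the method: DESeq2 called 0 of the 49 and 435 genes of the whole table. At an unadjusted edgeR p under 0.05 there were 2 of the 49 genes (4.08%), against 12.9% of all genes. The estimate was over 0, a larger response in depleted tadpoles, for 40 of the 49 (81.6%), and for 52.2% of all genes. Its median was 0.33, against 0.04 over all genes, with a range of −0.61 to 0.78. The median standard error was 0.31 and the median half-width of the 95% interval 0.66, so differences in response of the size of the median estimate could not be resolved gene by gene with 5 tadpoles a group. With 1 tadpole left out, the median lay between 0.26 (without D2206) and 0.50 (without D2209), and 36 to 43 of the 49 were over 0. Scaled by total counts, the median of all genes shifted by 0.49, and 48 of the 49 and 75.6% of all genes were over 0. Relative to all genes, the median of the 49 was then 0.30, against 0.29 with the TMM factors.

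Genes outside the 49 that also rose with temperature give a rough scale for this direction. Only genes with no count of 0 and a mean of under 1000 CPM were considered. There were 916 other genes whose average log2 fold change with temperature was at least the smallest among the 49. They were not matched to the 49 in size of change or in spread. Of these, 67.8% had an interaction estimate over 0, with a median of 0.30, and their median log2 fold changes were 0.68 in colonized and 0.98 in depleted tadpoles. Among the 72 genes lower at 32, 51 had an estimate under 0, again the larger change in depleted tadpoles, with a median of −0.26.

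**Figure D3:**
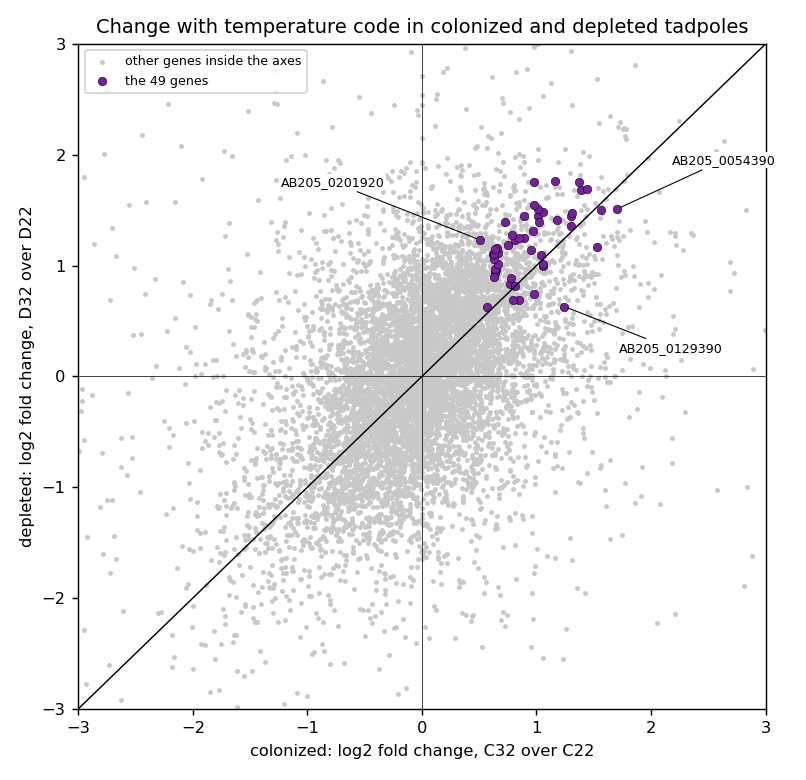
Fitted log2 fold change with temperature code in colonized (x) and depleted (y) tadpoles for the 49 genes (purple) and the other genes that lie inside the axes (grey); the diagonal marks equal change. Of the 49 genes, 40 lie above the diagonal, among them AB205_0201920, and 9 below, among them AB205_0054390 and AB205_0129390.

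The smallest unadjusted p for the interaction was that of AB205_0201920. Its values were 4.26, 4.49, 3.94, 4.34 and 3.19 in C22, 2.24, 3.58, 3.24, 2.49 and 4.48 in D22, 7.18, 5.19, 5.77, 5.24 and 5.299 in C32 and 7.21, 9.19, 5.75, 7.23 and 8.32 in D32. Values overlapped between colonized and depleted tadpoles at both codes, but D22 reached lower and D32 higher. Its interaction was 0.73 ± 0.28 (SE; 95% interval 0.15 to 1.31), with an edgeR p of 0.0165 before adjustment and an edgeR adjusted p of 0.299.

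AB205_0113190 was next. It had 7.13, 8.29, 5.45, 9.69 and 8.09 in C22, 4.54, 4.34, 5.62, 3.47 and 5.68 in D22, 12.5, 10.9, 15.1, 15.5 and 9.93 in C32 and 10.2, 11.5, 13.4, 10.5 and 16.6 in D32. At 22, D2209 and D2203 overlapped with C2206 and the other D22 tadpoles lay below all of C22, while at 32 the groups overlapped widely. Its interaction was 0.67 ± 0.28 (SE), with an edgeR adjusted p of 0.33. AB205_0201900 had 4.64, 4.66, 3.69, 4.14 and 3.44 in C22, 2.78, 2.07, 1.36, 3.47 and 2.95 in D22, 8.12, 7.68, 5.53, 10.8 and 8.36 in C32 and 5.67, 6.11, 10.9, 6.66 and 13.4 in D32. Only D2206 reached into the C22 range, just above C2208, and D3207, D3205 and C3208 were the high tadpoles at 32. Its interaction, 0.78 ± 0.39 (SE), was the largest estimate among the 49 but had an edgeR adjusted p of 0.404.

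AB205_0149080, whose values are given above, had an interaction of 0.60 ± 0.29 (SE) and an edgeR adjusted p of 0.391. The opposite direction was largest in AB205_0129390. Its values were 205, 114, 124, 134 and 65.96 in C22, 162, 145, 194, 178 and 189.5 in D22, 319, 234, 426, 272 and 272 in C32 and 264, 329, 256, 224 and 270.2 in D32. C2208 was its lowest tadpole, and all 5 D22 values lay above every C22 value except that of C2201. The interaction was -0.61 ± 0.33 (SE), with an edgeR adjusted p of 0.429. The other genes with an estimate under 0 were AB205_0054390, AB205_0163470, AB205_0042580, AB205_0199690, AB205_0111400, AB205_0146200, AB205_0174290 and AB205_0043210.

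Depleted and colonized tadpoles were then compared at each code. As for the interaction, the rule bounds how far values of a code can spread towards the other code. At 22, 0 of the 49 genes were called at an adjusted p under 0.05, against 5 of 8477 genes (0.0590%), and 5 of the 49 had an unadjusted p under 0.05 (10.2%, against 13.0% of all genes). All 5 were lower in D22: AB205_0113190, AB205_0201900, AB205_0015790, AB205_0195990 and AB205_0124010. With DESeq2, 1 of the 49, AB205_0113190, and 405 genes of the whole table were called at 22. The edgeR estimate was under 0 for 41 of the 49 (83.7%) and for 51.9% of all genes, and its median was −0.21, against −0.02. Of the 916 other genes whose change with temperature was at least the smallest among the 49, 67.9% had an estimate under 0, with a median of −0.18.

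AB205_0113190 differed most, by -0.71 ± 0.20 (SE; 95% interval -1.12 to -0.29) on the log2 scale, with an edgeR adjusted p of 0.149. Without C2206 its edgeR adjusted p was 0.0459. AB205_0201900 followed at -0.70 ± 0.28 with an edgeR adjusted p of 0.309. AB205_0124010 had 11.6, 11.2, 7.55, 10.4 and 11.9 in C22, 7.25, 5.22, 7.49, 7.11 and 10.8 in D22, 19.8, 16.6, 20.3, 20.4 and 15.3 in C32 and 17.8, 16.2, 17.95, 20.5 and 16.6 in D32. Its D22 tadpoles lay below C2206 except D2209, and the groups overlapped at 32. The difference at 22 was -0.48 ± 0.17 (SE), with an edgeR adjusted p of 0.286.

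The lower level in D22 ran along with the scaling of the libraries. TMM factors were between 0.682 and 0.805 in 5 tadpoles coded 22, namely 4 of D22 and C2206, and between 1.03 and 1.255 in the other 5. The mean level of the 49 genes was −0.76 to −0.64 in the former and −0.68 to −0.27 in the latter, of which C2208, with a factor of 1.046 and the smallest library, was the lowest. D2209, the D22 tadpole with a factor of 1.03, had a mean level of −0.34, next to the high C22 tadpoles and above the other 4 of D22. Without D2209 the median difference at 22 was −0.31, without D2201 it was −0.15, and without C2204 it was −0.14. Scaled by total counts alone, the median over all 8477 genes shifted by −0.45 in this comparison. The estimate was then over 0 for 0 of the 49 genes and for 18.6% of all genes. Relative to all genes, the median of the 49 was −0.19 with the TMM factors and −0.17 with total counts. The part of library composition in the difference was not tested.

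**Figure D4:**
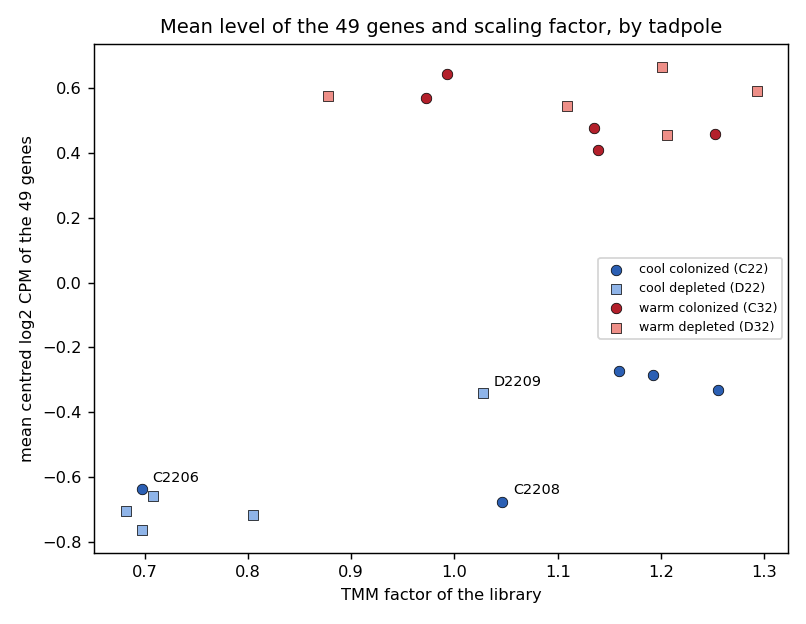
TMM factor of each library (x) and mean centred log2 CPM of the 49 genes (y), 1 point per tadpole. The tadpoles coded 32 lie from 0.41 to 0.66 at factors from 0.878 to 1.29. Among those coded 22, the 5 with factors under 0.9 lie at or below −0.64. D2209, with a factor of 1.03, lies at −0.34, while C2208, with a factor of 1.046, lies at −0.68.

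At 32, edgeR called 0 of the 49 genes and 0 of 8477 (0%), and DESeq2 called 0 of the 49 and 192 genes of the whole table. An unadjusted edgeR p under 0.05 was reached by 1 of the 49 (2.04%) and by 8.40% of all genes. The estimate was over 0, higher in D32, for 32 of the 49 genes (65.3%) and under 0 for 17, where 50.1% of all genes were over 0. The median was 0.08, against 0.0013 over all genes, with a range of −0.39 to 0.39, and it lay between 0.05 and 0.12 when 1 tadpole was left out (0.12 without C3208). Of the 916 other genes whose change with temperature was at least the smallest among the 49, 61.6% had an estimate over 0, with a median of 0.11. The 1 gene of the 49 with an unadjusted p under 0.05 was AB205_0042580. It had 3.63, 3.74, 3.77, 2.795 and 3.53 in C22, 2.58, 3.08, 2.81, 3.296 and 2.402 in D22, 6.76, 5.84, 6.28, 8.28 and 9.22 in C32 and 4.97, 5.55, 6.21, 5.13 and 6.504 in D32. It was lower in depleted tadpoles at both codes, with overlap at each: the difference at 32 was -0.36 ± 0.16 (SE), with an edgeR adjusted p of 0.579, and its interaction was -0.06 ± 0.23. AB205_0201920 and AB205_0149080 came next, both higher in D32, by 0.39 and 0.36, with edgeR adjusted p of 0.616 and 0.69.

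Averaged over both codes, edgeR called 0 of the 49 genes and 0 of 8477 (0%) between depleted and colonized tadpoles. DESeq2 called 0 of the 49 and 335 genes of the whole table. An unadjusted edgeR p under 0.05 was reached by 3 of the 49 (6.12%), against 8.49% of all genes: AB205_0113190, AB205_0042580 and AB205_0124010, all lower in depleted tadpoles. The estimate was over 0 for 16 of the 49 and under 0 for 33, where 48.9% of all genes were over 0. The median over the 49 was −0.05, against −0.01 over all genes, and it lay between −0.12 (without D2209) and −0.02 (without C2204) when 1 tadpole was left out. With total counts, all genes shifted by −0.20 in this average, and 0 of the 49 and 23.6% of all genes were over 0.

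**Figure D5:**
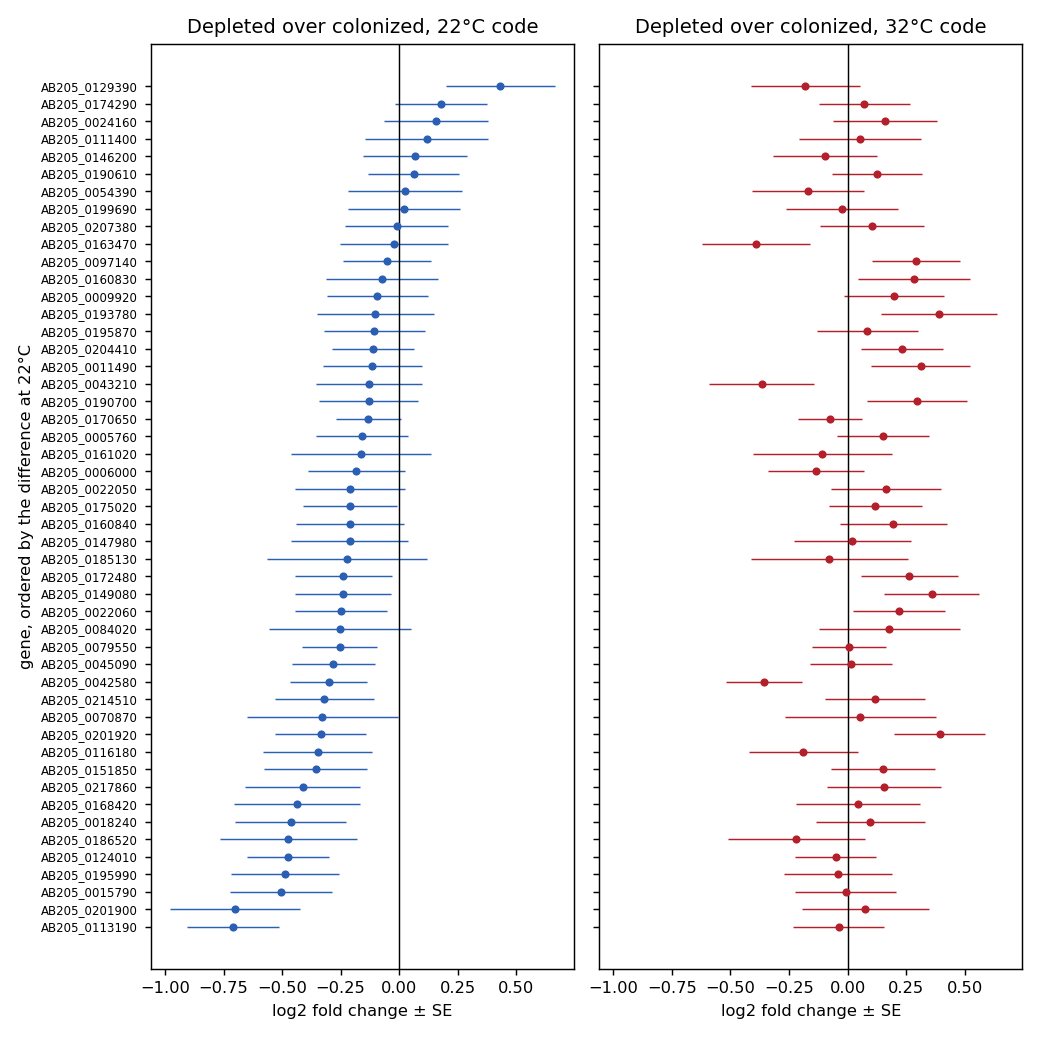
Log2 fold change of depleted over colonized tadpoles at the 22 code (left) and the 32 code (right), with standard errors, for the 49 genes in the order of the left panel. At 22, 41 of the 49 points lie below 0, down to −0.71 in AB205_0113190, while at 32 there are 17 below 0 and 32 above, all between −0.39 and 0.39.

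No gene of the 49 had colonized and depleted values fully apart at 22, where 2.87% of all genes did, and none at 32, where 1.42% did. The order of the 4 group means was D22, C22, C32, D32 from low to high in 28 genes and D22, C22, D32, C32 in 13. It was C22, D22, C32, D32 in 4 genes and C22, D22, D32, C32 in the other 4. The sizes of these differences were compared as fitted log2 fold changes, not as CPM. In all 49 genes the larger of both differences between depleted and colonized tadpoles was smaller than the smaller of both between temperatures. The rule contributes to this pattern. The median coefficient of variation of the 49 genes was 22.3% in C22, 24.9% in D22, 18.1% in C32 and 20.0% in D32, against 31.2%, 29.4%, 26.8% and 30.2% for all genes without a 0, and the choice of non-overlapping genes favours small spreads.

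The 49 genes also varied together to some degree within groups. Over the 20 tadpoles, with each value taken as its deviation from the group mean, the 1176 pairs of genes had correlations from −0.589 to 0.907 with a median of 0.164. Of the pairs, 70.1% were over 0 and 13.4% over 0.5, while over all pairs of genes with no count of 0 these shares were 50.1% and 6.68%. The points share library, depth and scaling factor, and the genes were chosen for small spread towards the other code, so this is a description. The closest pair was AB205_0160830 and AB205_0160840, at 0.907, whose identifiers differ by 10. AB205_0022050 and AB205_0022060, whose identifiers also differ by 10, reached 0.705. AB205_0201900 and AB205_0201920 were at −0.134. AB205_0163470 and AB205_0079550 were at 0.865, and the lowest pair was AB205_0149080 and AB205_0163470 at −0.589.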

How the data were processed

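The deposited values are raw counts of reads per gene in 20 gut libraries, which the authors made without normalization, after trimming (Trim Galore), mapping to the bullfrog genome, a congener of the green frog (BWA), counting (StringTie) and removal of genes of low abundance; the versions of these tools are not given in the sources used here. Reads of genes that diverged from the bullfrog sequence may be lost. All 8477 genes had at least 2 CPM in at least 3 libraries. Groups follow the animal codes.

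TMM factors and CPM were computed with edgeR 4.0.16 in R 4.3.3. A means model of the 4 groups was fitted to all 8477 genes (glmQLFit, glmQLFTest) for 4 contrasts, with Benjamini–Hochberg adjustment over all genes and an adjusted p under 0.05 as a call. Replicates are separate siblings, so p-values measure spread between them. The script was tested on simulated data. Alternatives were other scalings (total counts, RLE, upper quartile), filterByExpr, DESeq2 1.42.0, separate fits, the treatment fields, a replicate block and leaving out each tadpole. The members, lists and tests were chosen with earlier results of these data known. Named genes were those with the 10 widest gaps, the 6 highest and 3 lowest mean CPM, the 5 smallest interaction p, the 3 smallest p for depleted against colonized at each code, and 3 on each side of the edge; others named in a count of 5 or fewer, in the list of estimates under 0 or among correlated pairs were picked after their values were seen. No gene lists, markers or sequences could be used, since no names were at hand.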

Additional observations from a re-analysis of the deposited data

Results flagged for a closer look

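In 8 of the 104 groups of 5 tadpoles examined, 1 tadpole lay far from the other 4 (its gap to the nearest was over Dixon's 95% limit of the group's range), and chance alone flags about 1 in 20 groups. At 22, C2206 was low in AB205_0011490 (6.71 CPM, the others 11.01 to 12.7) and C2207 was low in AB205_0042580 (2.80, the others 3.53 to 3.77). D2209 was high in the mean level of the 49 genes (−0.34, the others −0.76 to −0.66) and in AB205_0097140 (81.4 CPM, the others 55.5 to 60.9), but low in AB205_0146200 (53.4, the others 76.7 to 82.6). At 32, C3204 was high in AB205_0201920 (7.18, the others 5.19 to 5.77), and D3203 was high in AB205_0084020 (80.2, the others 34.1 to 47.2) and in AB205_0146200 (205 CPM, the others 90.02 to 112).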

How the results depend on the processing

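The number of genes meeting the rule was 39 with total counts (22 shared with the 49), 47 with RLE factors (44 shared), 64 with upper quartile factors (48 shared), 10 with a stricter gap and 0 by the treatment fields. Leaving out 1 tadpole at a time gave 49 to 82 genes (77 without C2204, 82 without C2207), kept 46 to 49 of the 49 and added 142 genes in one or more of these. The median response of depleted tadpoles, 1.18, was 1.72 with total counts, which shifted the median of all genes by 0.54, and 1.15 to 1.37 with 1 tadpole left out (1.37 without D2209). That of colonized tadpoles was 0.86 to 0.97. The interaction and the differences at 32 and on average called 0 of the 49 under every alternative run. Among the alternatives, calls over all genes were counted only with DESeq2, so for the others this gives no trait particular to the 49. Unadjusted p under 0.05 for the interaction was reached by 1 to 20 of the 49, the 20 with total counts. That scaling shifted the median interaction of all genes by 0.49. In the main edgeR fit the share was 4.08% of the 49, against 12.9% of all genes. The share over all genes was not counted under the alternatives, so their counts give no trait of the 49. At 22, DESeq2 called 1 gene, AB205_0113190 (−0.71, adjusted p = 0.0178), and so did edgeR without C2206 (−0.81, adjusted p = 0.0459), so that leave-one-out counts ran from 0 to 1 and this gene's adjusted p from 0.0178 to 0.51 over all alternatives; the cause was not tested. DESeq2 called 435 genes of the whole table for the interaction, 405 at 22, 192 at 32 and 335 on average, where edgeR called 0, 5, 0 and 0. With a replicate block on the animal number, 0 of the 49 were called in each of the 4 contrasts, and calls over all genes were not counted. In 12 pairs of tadpoles of different groups with the same number, the correlation of deviations was −0.357 to 0.140, over 0.1 in 2. These correlations cannot show whether the numbers link animals. With 5 siblings a group, the interaction's 95% interval was wide against most estimates.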
